A study of Mus musculus with 16 samples.

Results

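NRF2, encoded by *Nfe2l2*, and 9 genes of its antioxidant pathway were compared between Tim-4+ and Tim-4- tumor-associated macrophages (TAMs) from the peritoneal cavity of mice bearing ID8 tumors. The 10 genes were taken from 55604 genes in the count files, and all 10 were found by Ensembl identifier and passed the filter on low counts. They are *Nfe2l2* and *Keap1* (regulators), *Slc7a11*, *Gclc* and *Gclm* (glutathione synthesis), *Txnrd1*, *Srxn1* and *Prdx1* (thioredoxin and peroxiredoxin system), *Nqo1* (quinone reduction) and *Sod2* (superoxide removal). ID8 is a line of mouse ovarian cancer cells that seeds the peritoneal cavity. The mice were C57BL/6, and the study's methods give female mice of 6 to 8 weeks of age, with no gene deletion or treatment stated for these libraries. That age is given for the study's mice in general. The TAMs for sequencing were sorted from mice that had borne tumors for several weeks, and the age at sorting is not stated. Tim-4+ TAMs were captured first with beads against Tim-4, a receptor for dead cells on resident macrophages, and Tim-4- TAMs were then captured from the remaining cells with beads against F4/80. Each subset has 4 libraries (n = 4), and the libraries carry the pair numbers 793, 784, 783 and 779. The numbers are those of the sample labels. Another listing by the study appears to give them in a different order with the same 2 libraries in each pair, so a pair's number is less certain than the pairing. Whether a number marks 1 mouse or a pool is not stated in the sources used here. The p-values between the subsets therefore measure the spread of the differences within these pairs of libraries.

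NRF2 is a transcription factor that is held back by KEAP1, an adaptor that delivers it to a ubiquitin ligase. Oxidants and electrophiles modify KEAP1, NRF2 then accumulates, and it binds antioxidant response elements together with small MAF proteins. Its classical targets make glutathione, recycle thioredoxin and peroxiredoxins, and reduce quinones. In macrophages the same program meets the oxidant burst and the iron of digested red cells. *Sod2*, the mitochondrial superoxide dismutase, is also well known as a target of NF-κB.

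The core of the antioxidant response element, TGACNNNGC, was searched on both strands of the RefSeq promoter windows of GRCm38.p6, which run from 250 bases before to 50 bases after each start. Windows were given for 9 of the 10 genes, 11 windows in all, with none for *Gclc*. The core was found in 5 of the 9 genes, and in 14.0% of the 27025 genes with a window (12.4% of all 32851 windows). These 5 matches are shown because they carry the sequence that gives the pathway its name, with the match in capitals and 10 bases on each side, written along the gene's strand.
Nfe2l2, chr2:75704885-75704913, minus strand, 240 bases before the start: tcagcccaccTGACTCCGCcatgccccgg
Gclm, chr3:122245413-122245441, plus strand, 134 bases before the start: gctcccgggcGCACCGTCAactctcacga
Txnrd1, chr10:82859104-82859132, plus strand, 92 bases before the second of 3 starts: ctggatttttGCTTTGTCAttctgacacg
Srxn1, chr2:152105542-152105570, plus strand, 28 bases after the start: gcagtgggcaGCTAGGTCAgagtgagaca
Prdx1, chr4:116685456-116685484, plus strand, 133 bases before the start: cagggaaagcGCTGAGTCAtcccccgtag
The *Nfe2l2* match reads along the gene and the other 4 read on the opposite strand. The *Prdx1* match also contains TGAGTCA, the AP-1 site. The windows of *Keap1*, *Slc7a11*, *Nqo1* and *Sod2* do not hold these letters, which says nothing of elements farther away. A second motif, TGATGNAA, the amino acid response element that ATF4 complexes bind, was found in 3.97% of all windows. *Slc7a11* was the only gene of the 9 whose windows held it, with 1 match on each strand, starting 66 and 47 bases before the start. Its 250 bases before the start (chr3:50443614-50443863, minus strand) are shown because it is the gene with the largest difference between the subsets, with both matches in capitals.
Slc7a11: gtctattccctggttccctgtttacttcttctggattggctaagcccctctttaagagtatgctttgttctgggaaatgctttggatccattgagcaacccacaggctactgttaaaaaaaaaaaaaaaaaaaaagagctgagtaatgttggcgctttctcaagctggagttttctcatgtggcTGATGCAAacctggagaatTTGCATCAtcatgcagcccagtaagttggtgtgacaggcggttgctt
The motifs were searched with the results below known, and a match is a string of letters, not a measured binding site.

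Counts on genes totaled 53527928 to 57768202 in the libraries of the first subset and 55618306 to 69594245 in those of the second. *Timd4*, which encodes Tim-4, followed the sort in all 4 pairs, with 524 to 1744 CPM in Tim-4+ TAMs against 1.97 to 85.0 CPM in Tim-4- TAMs. CPM are counts scaled to library size with TMM factors. The summed level of 8 macrophage markers was 44565 to 57227 CPM in Tim-4+ and 21339 to 34366 CPM in Tim-4- TAMs, most of it *Lyz2*. Of the 8, 6 were higher in Tim-4+ TAMs, *Mrc1* was lower (log2 fold change -1.09, adjusted p = 0.0115) and *Csf1r* was not called (0.25, adjusted p = 0.353). The summed level of 10 tumor epithelial or mesothelial markers was 114 to 411 CPM against 459 to 2197 CPM, and all 10 were lower in Tim-4+ TAMs (adjusted p under 0.05). In such bulk samples, fewer cells of a type and less RNA per cell cannot be told apart.

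Of the 10 genes, 3 were higher in Tim-4+ TAMs, 0 were lower, and 7 did not pass the test (edgeR quasi-likelihood test with the pair as a block, adjusted p under 0.05 over 16861 genes). *Slc7a11* was 2.56-fold higher, *Sod2* was 1.60-fold higher and *Gclc* was 1.35-fold higher. Over all genes tested, 8.97% were higher and 8.43% were lower by the same rule. At an unadjusted p under 0.05, 4 of the 10 genes were higher and 1 was lower, against 16.8% and 16.9% of all genes. DESeq2 called 3 of the 10 higher and 0 lower, against 13% and 13.8% of all genes. The median log2 fold change was 0.25 over the 10 genes and about 0 over all genes. The 3 calls rest in part on the scaling and on pair 784. With total counts in place of TMM factors, the median of all genes moved to -0.36. By that scaling 1 of the 10 genes was higher (*Slc7a11*) and 3 were lower (*Keap1*, *Prdx1* and *Nqo1*), where 789 and 4906 of all 16861 genes were. Without pair 784, 0 of the 10 were called (3 were higher and 0 lower at an unadjusted p under 0.05, against 12.4% and 12.5% of all genes), while the calls over all genes went from 1512 to 91 higher and from 1421 to 67 lower. The fold changes themselves were then about as large, with log2 values of 1.45 for *Slc7a11*, 0.65 for *Sod2* and 0.43 for *Gclc*.

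**Figure D1:**
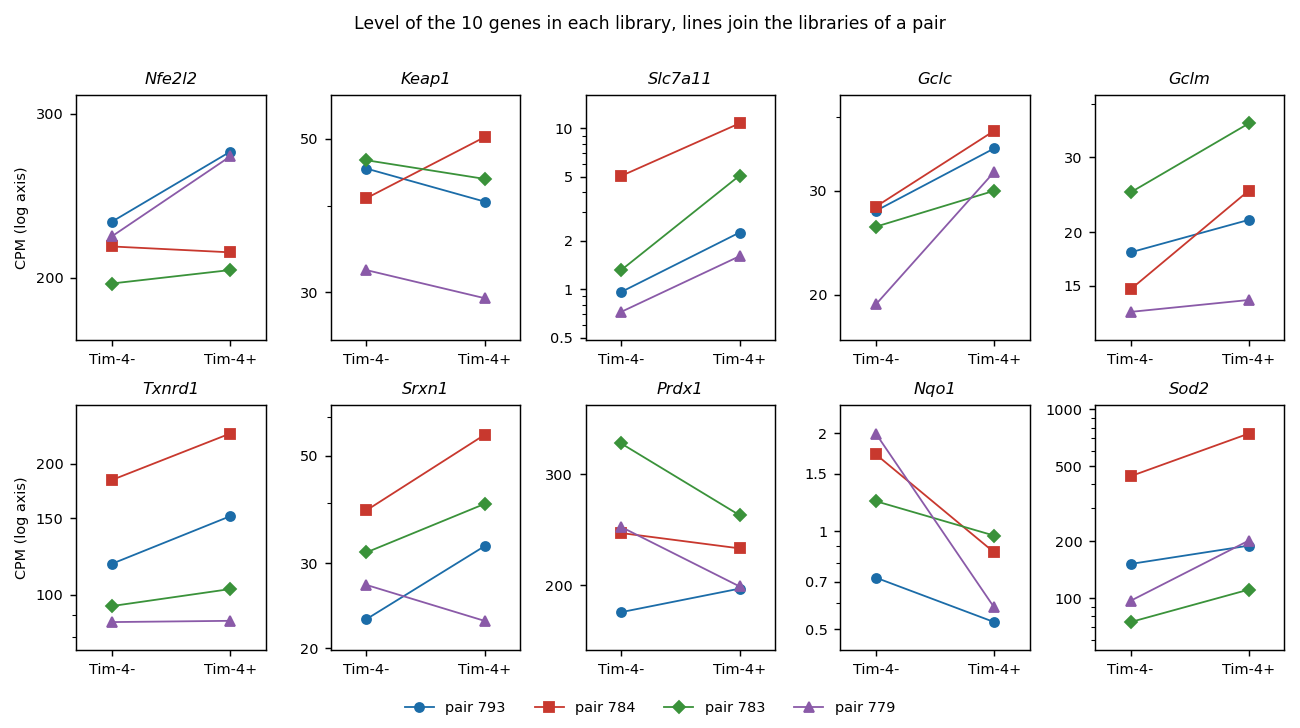
Level of each of the 10 genes in CPM (log axes, which differ between panels) in Tim-4- and Tim-4+ TAMs, with a line joining the libraries of each pair. *Slc7a11*, *Gclc*, *Gclm*, *Txnrd1* and *Sod2* are higher in Tim-4+ TAMs in 4 of 4 pairs, *Nqo1* is lower in 4 of 4, and for *Slc7a11* and *Sod2* the distance between pairs exceeds that between subsets.

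*Nfe2l2* (ENSMUSG00000015839.6, GRCm38 chromosome 2, 75675513 to 75704641) was measured at 273, 213, 204 and 270 CPM in Tim-4+ TAMs of pairs 793, 784, 783 and 779, and at 230, 216, 197 and 222 CPM in Tim-4- TAMs. The ranges overlapped, and the highest level over all 8 libraries was 1.38 times the lowest, the smallest such span of the 10 genes. The log2 fold change was 0.14 (SE 0.11, 95% interval -0.12 to 0.40, adjusted p = 0.429). *Keap1* (ENSMUSG00000003308.15, chromosome 9, 21229730 to 21239361), which holds NRF2 back, was measured at 40.6, 50.3, 43.7 and 29.4 CPM in Tim-4+ TAMs and at 45.3, 41.0, 46.6 and 32.3 CPM in Tim-4- TAMs, in the same order of pairs. Pair 779 was lowest in both subsets. Its log2 fold change was -0.02 (SE 0.12, -0.29 to 0.24, adjusted p = 0.918), and its sign turned when pair 793, 783 or 779 was left out. An antisense gene, Gm16754, shares part of the 10.9% of *Keap1* exon bases that lie in exons of other genes, all on the opposite strand, and it held 764 counts over the 8 libraries. Neither regulator differed between the subsets beyond the spread of the differences within pairs at this depth. The intervals still allow a difference of up to 1.32-fold for *Nfe2l2* and 1.22-fold for *Keap1*.

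*Slc7a11* (ENSMUSG00000027737.10, chromosome 3, 49892526 to 50443614) encodes xCT, the cystine importer that supplies cysteine for glutathione. It was measured at 2.25, 10.7, 5.08 and 1.60 CPM in Tim-4+ TAMs of pairs 793, 784, 783 and 779, and at 0.96, 5.06, 1.31 and 0.72 CPM in Tim-4- TAMs. The counts behind these values were 107, 537, 278 and 77, and 64, 370, 103 and 47. The subsets overlapped, because the Tim-4- library of pair 784 was above the Tim-4+ libraries of pairs 793 and 779, but within each pair the Tim-4+ library was higher. The log2 ratio within a pair was 1.201, 1.08, 1.93 and 1.12, and the fitted log2 fold change was 1.36 (SE 0.25, 0.78 to 1.93, adjusted p = 0.0137). It was the only one of the 10 genes with a call of at least 2-fold, which 3.8% of all genes had in this direction and 5.79% in the other. The adjusted p was 0.0856 without pair 784, where the log2 fold change was 1.45, and 0.380 without the pair block.

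*Gclc* (ENSMUSG00000032350.9, chromosome 9, 77754535 to 77794485) encodes the catalytic subunit of glutamate-cysteine ligase, the rate-limiting enzyme of glutathione synthesis. Its level was 35.4, 37.96, 30.0 and 32.3 CPM in Tim-4+ TAMs and 27.7, 28.2, 26.1 and 19.2 CPM in Tim-4- TAMs. It was the only one of the 10 genes whose subsets did not overlap, a property that 6.84% of all genes had in this direction and 5.92% in the other. The log2 fold change was 0.43 (SE 0.12, 0.15 to 0.72, adjusted p = 0.0485). That p lay close to the threshold and was above it in 8 of 15 alternatives, among them each lane alone (0.0545 and 0.0530) and total counts (0.639, log2 fold change 0.07). *Gclm* (ENSMUSG00000028124.15, chromosome 3, 122245557 to 122270732), the modifier subunit of the same ligase, was measured at 21.4, 25.1, 36.0 and 13.9 CPM in Tim-4+ TAMs and at 18.0, 14.7, 24.8 and 13.03 CPM in Tim-4- TAMs. All 4 pairs were higher in Tim-4+ TAMs, as were 22.4% of all genes, and pair 783 was the highest in both subsets. Of its exon bases, 4.71% lie in exons of other genes, 3.88% on the same strand. The log2 fold change was 0.41 (SE 0.14, 0.08 to 0.75, adjusted p = 0.0847), so the subunits had almost the same fold change and fell on either side of the threshold.

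*Txnrd1* (ENSMUSG00000020250.10, chromosome 10, 82833951 to 82897712), the cytosolic thioredoxin reductase, was measured at 152, 235, 103 and 87.1 CPM in Tim-4+ TAMs and at 118, 184, 94.1 and 86.5 CPM in Tim-4- TAMs of pairs 793, 784, 783 and 779. The order of the pairs was the same in both subsets. The log2 fold change was 0.21 (SE 0.11, -0.04 to 0.47, adjusted p = 0.212). *Srxn1* (ENSMUSG00000032802.8, chromosome 2, 152105516 to 152111376) encodes sulfiredoxin, which repairs overoxidized peroxiredoxins. Its level was 32.5, 55.2, 39.8 and 22.8 CPM in Tim-4+ TAMs and 23.0, 38.5, 31.6 and 27.0 CPM in Tim-4- TAMs, higher in 3 of 4 pairs and lower in pair 779. The log2 fold change was 0.28 (SE 0.15, -0.06 to 0.62, adjusted p = 0.231). *Prdx1* (ENSMUSG00000028691.12, chromosome 4, 116685544 to 116700822), a peroxiredoxin that removes hydrogen peroxide, was measured at 198, 229, 259 and 199 CPM in Tim-4+ TAMs and at 181, 242, 336 and 248 CPM in Tim-4- TAMs. It was lower in Tim-4+ TAMs in 3 of 4 pairs, with a log2 fold change of -0.16 (SE 0.13, -0.45 to 0.13, adjusted p = 0.411). The signs of *Nfe2l2*, *Txnrd1* and *Srxn1* turned with total counts, to -0.22, -0.14 and -0.08.

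*Nqo1* (ENSMUSG00000003849.8, chromosome 8, 107388225 to 107403206), the quinone reductase that is the textbook NRF2 target, was rare in both subsets. It had 25, 43, 53 and 28 counts in Tim-4+ TAMs of pairs 793, 784, 783 and 779, and 48, 126, 97 and 130 counts in Tim-4- TAMs. These are 0.53, 0.86, 0.97 and 0.58 CPM against 0.72, 1.72, 1.24 and 1.996 CPM. It was the member with the lowest log2 fold change, -0.89 (SE 0.37, -1.75 to -0.03, adjusted p = 0.136), and was lower in 4 of 4 pairs, as were 20.2% of all genes. The adjusted p was 0.0457 with total counts. The summed tumor epithelial or mesothelial markers of the Tim-4- libraries were 459, 1407, 945 and 2197 CPM in the same order, so *Nqo1* and these markers ranked the 4 Tim-4- libraries alike. Over the Tim-4+ libraries the markers summed to 114, 206, 411 and 246 CPM. Their part in the *Nqo1* values was not tested.

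*Sod2* (ENSMUSG00000006818.5, chromosome 17, 13006846 to 13040063) was measured at 190, 743, 111 and 202 CPM in Tim-4+ TAMs and at 152, 442, 74.6 and 96.7 CPM in Tim-4- TAMs of pairs 793, 784, 783 and 779. Pair 784 stood above the other 3 pairs in both subsets, and its Tim-4- library exceeded every Tim-4+ library of the other pairs. Within the pairs the log2 ratio was 0.32, 0.75, 0.57 and 1.06, and the fitted log2 fold change was 0.68 (SE 0.14, 0.35 to 1.01, adjusted p = 0.0201). The adjusted p was 0.0950 without pair 784, 0.0740 without pair 779, 0.0558 with total counts and 0.630 without the pair block.

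**Figure D2:**
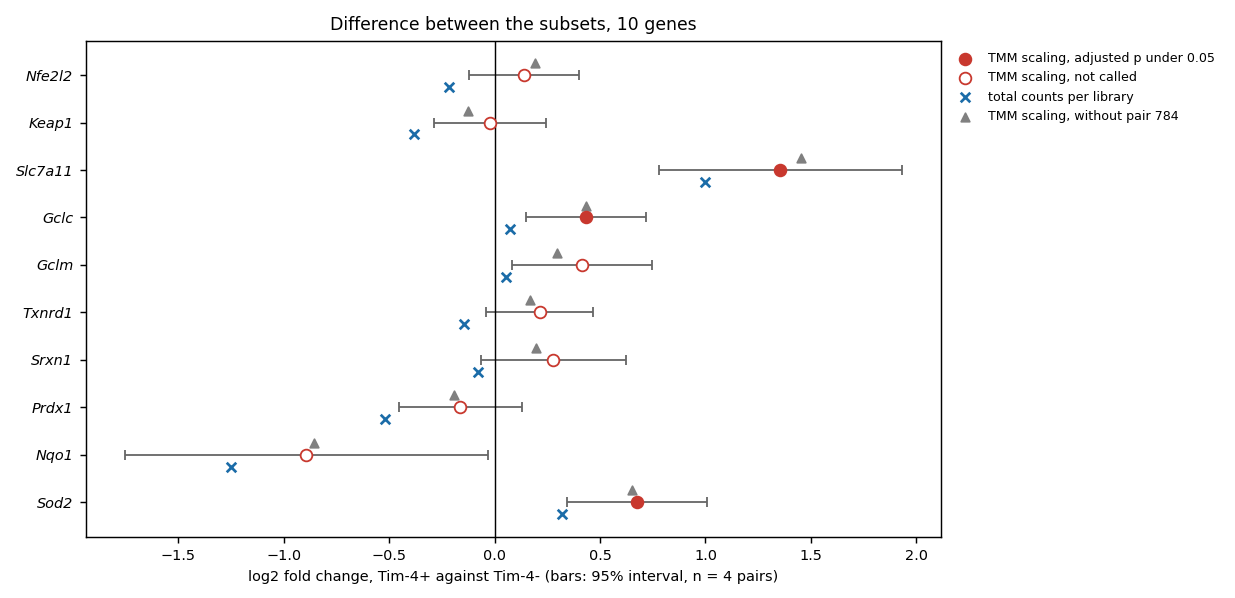
Log2 fold change of each gene in Tim-4+ against Tim-4- TAMs (circles, filled where the adjusted p was under 0.05, with 95% intervals over 4 pairs), beside the values with total counts per library (crosses) and without pair 784 (triangles). *Slc7a11*, *Sod2* and *Gclc* are filled, at 1.36, 0.68 and 0.43, every cross lies to the left of its circle, and the triangles lie within the intervals.

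Between genes, levels were compared per kilobase of exon. In Tim-4+ TAMs the order from the highest was *Prdx1* (72.6 ± 9.48 CPM per kb, SD, n = 4), *Nfe2l2* (63.2 ± 9.63), *Sod2* (31.1 ± 29.1), *Txnrd1* (20.3 ± 9.37), *Srxn1* (13.3 ± 4.85), *Gclc* (9.01 ± 0.92), *Keap1* (8.74 ± 1.86), *Gclm* (3.83 ± 1.46), *Nqo1* (0.47 ± 0.14) and *Slc7a11* (0.35 ± 0.30). The ranges of neighbours in this order overlapped, except between *Keap1* and *Gclm* and between *Gclm* and *Nqo1*. In Tim-4- TAMs the order was the same but for *Keap1* (8.80 ± 1.37) and *Gclc* (6.72 ± 1.10), which changed places and whose ranges overlapped. The ranges of *Nfe2l2* and *Sod2*, of *Gclc* and *Gclm* and of *Gclm* and *Nqo1* did not overlap in this subset. There *Slc7a11* was at 0.14 ± 0.15 CPM per kb, with its range below that of *Nqo1* (0.91 ± 0.36). The regulator *Nfe2l2* was among the most abundant of the 10 genes. *Slc7a11*, the gene with the largest fold change, had the lowest mean per kilobase in both subsets, whereas *Nqo1* had the lowest mean CPM without regard to length.

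The pairs were compared in the same fit, and 4 of the 10 genes differed between them (*Sod2*, *Slc7a11*, *Txnrd1* and *Gclm*), against 11.5% of all genes. The mean log2 CPM of *Sod2* in pair 784 was 1.61 above the mean of the 4 pairs, and it was 0.15, 0.42 and 1.04 below it in pairs 793, 779 and 783 (adjusted p = 0.00269). For *Slc7a11*, pair 784 was 1.63 above the mean, pair 783 was 0.14 above it, and pairs 793 and 779 were 0.67 and 1.10 below it (adjusted p = 0.00849). *Txnrd1* had the same highest and lowest pair as *Slc7a11*, 784 at 0.74 above and 779 at 0.52 below the mean (adjusted p = 0.00854). *Gclm* differed in another way, with pair 783 at 0.60 above and pair 779 at 0.55 below (adjusted p = 0.0389). *Nfe2l2* spanned 0.32 and *Gclc* 0.39 on this log2 scale between the highest and the lowest pair, against 2.74 for *Slc7a11*. Pair 784 was the highest in both subsets for 5 of the 10 genes, a count that was not made over all genes. Without pair 784, 0 of the 10 genes differed between the remaining pairs in the edgeR fit (5 at an unadjusted p under 0.05, against 21.2% of all genes). Of all genes, 254 then differed, against 1940 with pair 784.

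**Figure D3:**
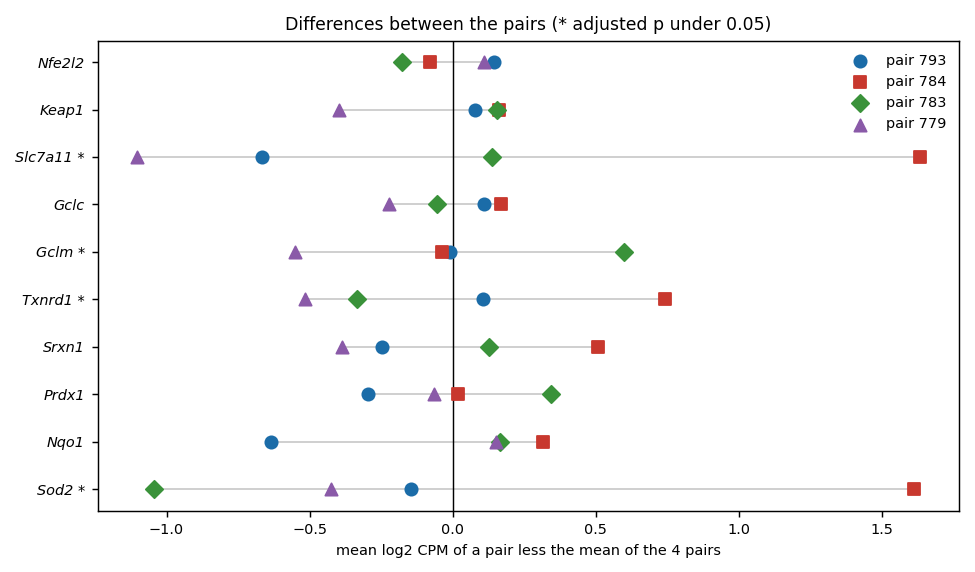
Mean log2 CPM of each pair less the mean of the 4 pairs, for each of the 10 genes, with an asterisk where the pairs differed at an adjusted p under 0.05. The square of pair 784 lies 1.61 and 1.63 above the mean for *Sod2* and *Slc7a11*, and the pairs of *Nfe2l2* and *Gclc* lie close together.

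The genes with the most similar pattern were sought by the root mean square difference of centred log2 CPM over the 8 libraries, where a gene's mean level reached 10 CPM. Those nearest to *Nfe2l2* were *Rabepk* (0.058), *Dek* (0.066) and *Nsd3* (0.070), of 8769 genes. Those nearest to *Slc7a11* were *Ell2* (0.529), *Pou2f2* (0.531) and *Hivep3* (0.539), of 8770 genes. The SD of *Slc7a11* itself was 1.34 on this scale and that of *Nfe2l2* was 0.17. In both cases the differences are to be read against that SD, so the smaller values for *Nfe2l2* do not show a closer likeness.

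The wider pathway was read from 9 lists of 111 genes, of which 98 were tested. In the Tim-4+ subset 22 of the 98 were higher, 3 were lower and 73 were not called, against 8.97% and 8.43% of all genes. The same shares of all genes apply to the counts of called genes in each list below. At an unadjusted p under 0.05 in this edgeR fit 35 were higher and 9 were lower, where 16.8% and 16.9% of all genes passed, and DESeq2 called 31 higher and 5 lower, where it called 13% and 13.8% of all genes. In the 7 lists with 0 lower genes in edgeR, DESeq2 called 1 lower gene in all, in the list of quinone and aldehyde enzymes, and the unadjusted p gave 1 lower gene of NADPH supply and 3 of that list. The median log2 fold change of those tested was 0.18. The subsets did not overlap for 14 of the 98 that were higher in Tim-4+ TAMs and 3 that were lower, against 6.84% and 5.92% of all genes. With total counts, 6 of the 98 were higher and 17 were lower, where 789 and 4906 of all 16861 genes were. Without pair 784, 2 of the 25 calls remained (*Gsr* and *Ephx1*), and without the pair block 2 remained (*Gsr* and *Gpx3*).

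**Figure D4:**
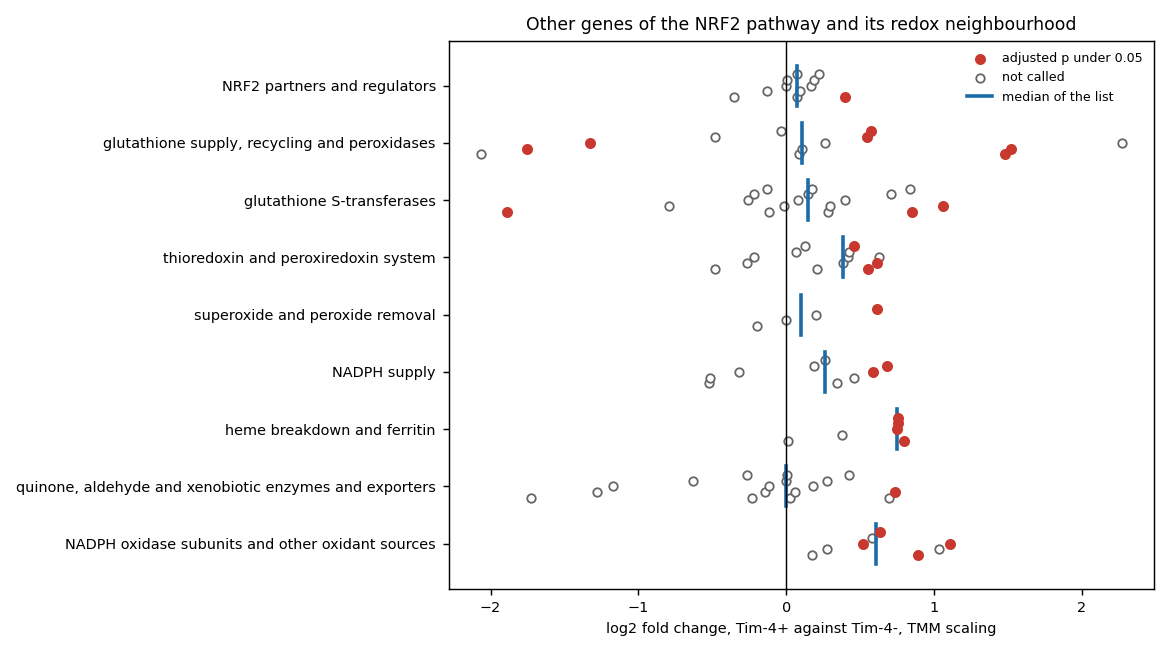
Log2 fold change of each tested gene of the 9 lists in Tim-4+ against Tim-4- TAMs (TMM scaling), filled where the adjusted p was under 0.05, with the median of each list as a vertical bar. The highest medians are those of the heme and ferritin list (0.75) and the oxidant source list (0.61), and the medians of the other 7 lists lie between 0.00 and 0.38.

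Among 11 partners and regulators of NRF2, 1 was called. *Gsk3b*, a kinase that marks NRF2 for a second route of breakdown, was 105 ± 13.4 CPM (SD, n = 4) in Tim-4+ and 80.6 ± 15.7 CPM in Tim-4- TAMs (log2 fold change 0.40, SE 0.11, adjusted p = 0.0410). *Sqstm1*, the autophagy receptor p62 that sequesters KEAP1, was the most abundant of the list, at 443 ± 85.6 against 383 ± 94.5 CPM (adjusted p = 0.288). The repressor *Bach1*, chosen after its values were seen, was at 171 ± 62.2 and 171 ± 70.4 CPM. *Nfe2l1*, the relative of NRF2, and *Mafk*, a small MAF partner, were not called between the subsets but differed between the pairs. The level of *Nfe2l1* was highest in pair 784, at 363 and 317 CPM, and 159 to 195 CPM in the other 6 libraries (adjusted p between pairs = 0.0102).

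Genes that recycle and spend glutathione stood on both sides of 0. Of 13 tested, 4 were higher and 2 were lower. *Gsr*, glutathione reductase, had the lowest adjusted p of all 9 lists. Its level was 172, 209, 73.3 and 145 CPM in Tim-4+ TAMs and 64.7, 52.1, 38.2 and 43.5 CPM in Tim-4- TAMs of pairs 793, 784, 783 and 779. The subsets did not overlap, and the log2 fold change was 1.52 (SE 0.18, adjusted p = 0.00613), a call that held in all 15 alternatives. *Gpx3*, a secreted glutathione peroxidase, was 31.6 ± 4.67 against 11.7 ± 4.01 CPM (log2 fold change 1.48, adjusted p = 0.00875). *Gpx4*, which removes lipid peroxides, was 70.5 ± 7.25 against 48.7 ± 9.72 CPM (0.55, adjusted p = 0.0180), and *Gpx1* was 1506.5 ± 194 against 1017 ± 179 CPM (0.57, adjusted p = 0.0446). The genes that were lower break glutathione down or act on its conjugates. *Ggt5* was 4.72 ± 2.15 against 11.6 ± 4.51 CPM (-1.33, adjusted p = 0.0171), and *Chac1*, also a target of ATF4, was at 8, 36, 11 and 25 counts against 44, 127, 31 and 230 counts (-1.76, adjusted p = 0.0299). *Chac1*, like *Nqo1*, was highest in the Tim-4- library of pair 779, which also had the highest sum of tumor epithelial or mesothelial markers. Whether these cells bear on *Chac1* was not tested. *Slc3a2*, the heavy chain that pairs with xCT, was 292 ± 49.7 against 268 ± 6.40 CPM and was not called (0.11, adjusted p = 0.600), and *Gss*, the second enzyme of glutathione synthesis, was 10.7 ± 1.70 against 15.1 ± 3.77 CPM (-0.48, adjusted p = 0.111). These last 2 genes were chosen after their values were seen.

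Of 17 glutathione S-transferases tested, 2 were higher and 1 was lower. *Gsto1* was 61.8 ± 14.9 against 35.8 ± 13.8 CPM (log2 fold change 0.85, adjusted p = 0.0403) and *Gstk1* was 7.79 ± 1.96 against 3.92 ± 1.74 CPM (1.06, adjusted p = 0.0440). *Gsta4*, which detoxifies products of lipid peroxidation, was 1.24, 0.58, 2.65 and 0.92 CPM in Tim-4+ TAMs and 2.58, 2.83, 4.88 and 10.2 CPM in Tim-4- TAMs (-1.89, adjusted p = 0.0347), and like *Nqo1* it was highest in the Tim-4- library of pair 779, which had the highest sum of tumor epithelial or mesothelial markers. Whether these cells bear on *Gsta4* was not tested. *Mgst1*, the most abundant of the list, was 116 ± 31.5 against 102 ± 12.6 CPM (adjusted p = 0.443). The classical targets *Gsta1*, *Gsta2*, *Gstm3*, *Gstp1* and *Gstp2* had 0 to 4 counts over the 8 libraries and were not tested. Near-identical copies share reads in these families, and reads that fell on several places were set aside in the counting.

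In the thioredoxin list, which holds the neighbours of *Txnrd1*, *Srxn1* and *Prdx1*, 3 of 13 genes were higher and 0 were lower. *Txndc17* was 99.8 ± 3.55 against 72.8 ± 5.63 CPM with no overlap (log2 fold change 0.46, adjusted p = 0.0231). In this list 1 gene did not overlap in the other direction and was not called. *Txn1*, the thioredoxin that TXNRD1 reduces, was 283 ± 69.0 against 181 ± 11.8 CPM (0.61, adjusted p = 0.0344). *Prdx6* was 216 ± 64.7 against 143 ± 30.5 CPM (0.56, adjusted p = 0.0376), whereas *Prdx5*, the most abundant, was 714 ± 218 against 521 ± 72.8 CPM and missed the threshold (0.42, adjusted p = 0.0911). Beside *Sod2*, 1 of 4 genes of superoxide and peroxide removal was higher. This was *Cat*, catalase, at 127 ± 23.5 against 83.2 ± 18.7 CPM (0.62, adjusted p = 0.0172). *Sod1*, the cytosolic dismutase, was 117 ± 13.7 against 103 ± 24.3 CPM (0.20, adjusted p = 0.228). Of 9 genes of NADPH supply, 2 were higher. *Idh1* was 277 ± 38.6 against 179 ± 56.8 CPM (0.68, adjusted p = 0.0174), and *G6pdx*, the entry enzyme of the pentose phosphate pathway, was 214 ± 20.0 against 143 ± 19.4 CPM (0.59, adjusted p = 0.0198). Neither of these overlapped between the subsets, a property that 6.84% of all genes had in this direction and 5.92% in the other. In this list 1 gene had it in the other direction and was not called. *Tkt*, the most abundant, did not pass the test (0.19, adjusted p = 0.332).

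The heme and ferritin list had 4 of 6 genes higher and 0 lower, against 8.97% and 8.43% of all genes, and its median log2 fold change was 0.75. *Blvrb*, a biliverdin reductase, was 134 ± 21.9 against 81.7 ± 25.2 CPM (0.76, adjusted p = 0.0223). The ferritin chains *Ftl1* and *Fth1* were 770 ± 77.1 against 465 ± 119 CPM (0.76, adjusted p = 0.0253) and 5647 ± 1760.3 against 3283 ± 547 CPM (0.75, adjusted p = 0.0283). *Hmox1*, heme oxygenase 1, was 446, 895, 2161 and 346 CPM in Tim-4+ TAMs and 387, 455, 834 and 225 CPM in Tim-4- TAMs of pairs 793, 784, 783 and 779. It was higher in 4 of 4 pairs (0.79, SE 0.20, adjusted p = 0.0335) and differed between the pairs (adjusted p = 0.00985), with pair 783 highest in both subsets. Pair 783 was also the pair with erythroid RNA. Its 5 erythroid markers summed to 255 CPM in Tim-4+ and 65.5 CPM in Tim-4- TAMs, against 3.64 CPM or less in the other 6 libraries. Their part in the *Hmox1* values was not tested. With total counts, 0 genes of the list were higher and 1 was lower, where 789 and 4906 of all 16861 genes were.

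In the list of *Nqo1*, with 17 tested enzymes and exporters for quinones, aldehydes and foreign compounds, 1 was higher and 0 were lower. *Ephx1*, the microsomal epoxide hydrolase, was 158, 127, 120 and 218 CPM in Tim-4+ TAMs and 99.4, 85.1, 68.1 and 119 CPM in Tim-4- TAMs (0.73, SE 0.10, adjusted p = 0.00804). The most abundant of the list, *Akr1a1*, was 491 ± 22.3 against 487 ± 90.6 CPM (0.03, adjusted p = 0.914). Exporter *Abcc3*, named here after its values were seen, differed between the pairs (adjusted p = 0.00206) and was highest in pair 783, at 215 and 196 CPM against 49.6 to 79.8 CPM in the other 6 libraries.

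Of 8 oxidant sources tested, 4 were higher and 0 were lower, against 8.97% and 8.43% of all genes. *Cybb*, the catalytic subunit of the phagocyte NADPH oxidase, was 2364, 3693, 1580 and 3050 CPM in Tim-4+ TAMs and 1271, 1847, 983 and 837 CPM in Tim-4- TAMs (1.11, SE 0.22, adjusted p = 0.0167). *Rac2*, its GTPase, was 597 ± 179 against 317 ± 70.1 CPM (0.89, adjusted p = 0.0107), and *Xdh*, xanthine dehydrogenase, was 580 ± 130 against 371 ± 69.5 CPM (0.64, adjusted p = 0.0445). Granulocytes also carry these oxidase subunits. Their 8 markers summed to 252 to 369 CPM in Tim-4+ and 87.1 to 191 CPM in Tim-4- TAMs, nearly all of it *Csf3r*. The other markers were each at 2.89 CPM or less in every library. Among these, *S100a8* was at 1.39 to 2.89 CPM and *Ly6g* at 0.10 CPM or less. The part of granulocytes in the oxidase values was not tested. *Nos2*, the inducible nitric oxide synthase, named here after its values were seen, was not called between the subsets. Like *Sod2* and *Slc7a11*, *Nos2* was highest in pair 784 in both subsets. It was 0.48, 54.6, 3.05 and 1.41 CPM in Tim-4+ TAMs and 0.49, 14.9, 2.78 and 0.35 CPM in Tim-4- TAMs of pairs 793, 784, 783 and 779 (adjusted p between pairs = 0.00532, and 0.139 without pair 784). Of the 98 tested list genes, 13 differed between the pairs, against 11.5% of all genes. Of the 13, 5 were highest in pair 784, 4 in pair 783, 3 in pair 779 and 1 in pair 793.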

How the data were processed

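RNA of 4 pairs of sorted TAM subsets was rRNA-depleted and sequenced as stranded, paired-end libraries in 2 lanes each. The authors deposited raw counts of reads per gene and lane, without normalization. The submitters' processing notes name TopHat2 2.0.13, Cufflinks and Cuffdiff 2.2.1 with GRCm38; the counter and its use of strand are not given in the sources used here, so overlapping antisense genes are uncertain. Of the reads, 9.11% to 24.5% per lane fell on several places and were set aside, which lowers genes with near-identical copies. One lane (Tim-4-, pair 793, lane 1) is listed by symbol and was joined by order, and 96.9% of comparable symbols matched.

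Lanes were summed. The 16861 genes that reached 10 counts in 4 or more of 8 libraries were tested with edgeR 4.0.16 (R 4.3.3), using TMM factors, the robust quasi-likelihood test with a pair block, and p-values adjusted after Benjamini and Hochberg. The pair coefficients were tested jointly in the same fit. An SE is the log2 fold change over the root of F. The pairing comes from the label numbers, and deviations within pairs correlated across genes at 0.277 to 0.498. A floor of 3 counts is 0.0382 to 0.0630 CPM, counting error only. Gene positions are from GENCODE M21 and promoters from RefSeq.

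The members, lists and motifs were chosen with earlier results of these data known. The genes named are the 10 members and, for each list, the called genes with the lowest adjusted p (up to 4) and the most abundant gene; others are marked, and 1 called gene is not reported here. Alternatives were total counts, RLE factors, TMM without mitochondrial genes, other filters, no block, single lanes, other handling of the symbol-listed lane, DESeq2 1.42.0 and each pair left out. The fit was tested on simulated data.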

Additional observations from a re-analysis of the deposited data

How the results depend on the processing

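Of the 10 genes, *Nfe2l2*, *Txnrd1* and *Srxn1* had a direction that depended on the scaling, and *Keap1* had one that depended on the pairs in the fit. The other members kept their direction in all 15 alternatives. With total counts, 789 of all genes were higher and 4906 were lower (1512 and 1421 with TMM factors), and 1 of the 10 genes was higher and 3 were lower. Relative to the median of all genes, which moved to -0.36, the fold changes were those of the TMM fit to within 0.01. *Nfe2l2* (-0.22), *Txnrd1* (-0.14), *Srxn1* (-0.079), *Mgst1* (-0.21), *Tkt* (-0.17), *Sqstm1* (-0.13), *Akr1a1* (-0.33) and *Sod1* (-0.15) changed sign there. *Akr1a1* also did so without pair 784 (-0.075, against up to 0.12 without another pair), and *Keap1* without pair 793 (0.028), 783 (0.00018) or 779 (0.01).

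Without the pair block, 147 of all genes were higher, 85 were lower and 0 of the 10 genes were called. Testing every gene with any count gave 3151 genes that differed between the pairs. DESeq2 with the block gave 2328 lower genes and 4682 that differed between the pairs. Leaving out 1 pair at a time gave 91 to 1603 higher, 67 to 1983 lower and 254 to 2329 genes that differed between the pairs. Of the 10 genes, 0 to 3 were then higher, 0 were lower and 0 to 4 differed between the pairs. The lowest counts came without pair 784, with 3 pairs left in the fit. Of the 150 recomputed fold changes of the 10 genes, 127 kept their sign and their side of the threshold, 14 lost a call, 3 gained one and 6 changed sign. *Slc7a11* kept its call in 13 of 15 alternatives, *Sod2* in 11 and *Gclc* in 7, and the pair difference of *Gclm* was lost when any 1 of the 4 pairs was left out. The 25 to 130 counts of *Nqo1* and 47 to 537 of *Slc7a11* limit their precision.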
